A study of Arabidopsis thaliana with 46 samples.

Results

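SALK_016954 is a T-DNA insertion line of the Arabidopsis transcription factor gene WRKY1 (AT2G04880), and its shoots on full medium were compared with those of the wild type Col-0, with 3 arrays in each group. The comparison covers every probe set that is not an array control and whose mean was above 4 on the log2 scale in either group. This gave 12484 of 22746 probe sets, 12118 of them above 4 in both groups, 181 only in SALK_016954 and 185 only in Col-0. A probe set is a group of array probes that together give 1 value for a transcript.

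The series asks how WRKY1 acts in light and nitrogen signalling and holds 46 Affymetrix arrays in 16 groups. Both groups compared here stayed on full Murashige and Skoog medium with 0.1% sucrose until day 14, with 16 h of light (50 µmol m-2 s-1) and 8 h of darkness per day at 22 °C. Shoots were collected 2 h after the lights came on. SALK_016954 seedlings carry a T-DNA insertion in WRKY1, and Col-0 seedlings carry none. Shoots of SALK_136009 and SALK_070989, which carry other insertions in the same gene, were grown in the same experiment, with 3 arrays each, and SALK_070989 and Col-0 were also grown as light controls of another experiment. Where the insertions lie relative to the probes, and whether the replicates came from separate cultures, are points that the labels leave unstated. The limma p-values and standard errors therefore rest on the spread between arrays within all 16 groups of the series, which may be technical.

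WRKY proteins are plant transcription factors named after a short conserved stretch of amino acids in the domain that binds DNA, together with a zinc finger. They bind the W-box element in the promoters of target genes and can activate or repress them. The family is known best for roles in defence, senescence and responses to stress and nutrients.

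WRKY1 transcript was at or near the lowest measured level on the SALK_016954 arrays. Its probe set gave 2.23, 2.23 and 2.31 in SALK_016954, against 7.45, 7.77 and 7.47 in Col-0. All 3 SALK_016954 values lay within 0.1 of 2.23, the lowest value of the deposited table, so the difference of -5.31 ± 0.19 (SE, limma adjusted p = 3.9e-21) is a lower bound on the fall. An exact two-sided permutation test of 3 against 3 arrays gave p = 0.1, the smallest value it can give. SALK_136009 and SALK_070989 differed from the same Col-0 arrays by -3.35 and -4.99. SALK_016954 was also 1.96 ± 0.19 lower than SALK_136009 (limma adjusted p = 7.9e-08), where WRKY1 averaged 4.22, while its difference of -0.31 from SALK_070989 had an adjusted p of 0.4.

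Most transcripts differed little between SALK_016954 and Col-0. The difference was under 0.5 in size for 94.3% of the measured probe sets, and its median was 0.006. A call means an adjusted p under 0.05 in limma, adjusted over the 14288 probe sets tested in the whole table. Of the measured probe sets, 456 were called, 335 higher and 121 lower in SALK_016954. The background share of calls in this comparison is 3.28% of all tested probe sets, 2.38% higher and 0.896% lower. A further quantile normalization, which shifted the median of all differences by -0.011, gave 305 higher and 194 lower. A difference of at least 1, a doubling or more on the linear scale, was reached by 74 of those higher and 17 of those lower. The median difference was 0.74 among the higher ones and -0.61 among the lower ones. The 3 values of SALK_016954 and the 3 of Col-0 did not overlap in 440 of the 456, where 19.9% of all tested probe sets had no overlap. The calls were made on the same arrays, so this is no separate support for them.

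The count of calls rested on single arrays. It was 180 without SALK_016954 replicate 3, 249 without its replicate 2 and 680 without its replicate 1, and it was 295, 275 and 388 without Col-0 replicates 1, 2 and 3. A fit to the 6 arrays alone, with fewer arrays to estimate the spread, called 20, where 1999 had an unadjusted p under 0.05, and a fit to the 4 steady groups called 215. Array medians of the 6 arrays lay between 4.56 and 4.57 in SALK_016954 and between 4.54 and 4.6 in Col-0. The 3′ to 5′ bias of the GAPDH control was 2.13 to 2.2 in SALK_016954 and 2 to 2.14 in Col-0. Because these are bulk shoots, fewer cells of a type and less RNA per cell cannot be told apart in any difference below.

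**Figure D1:**
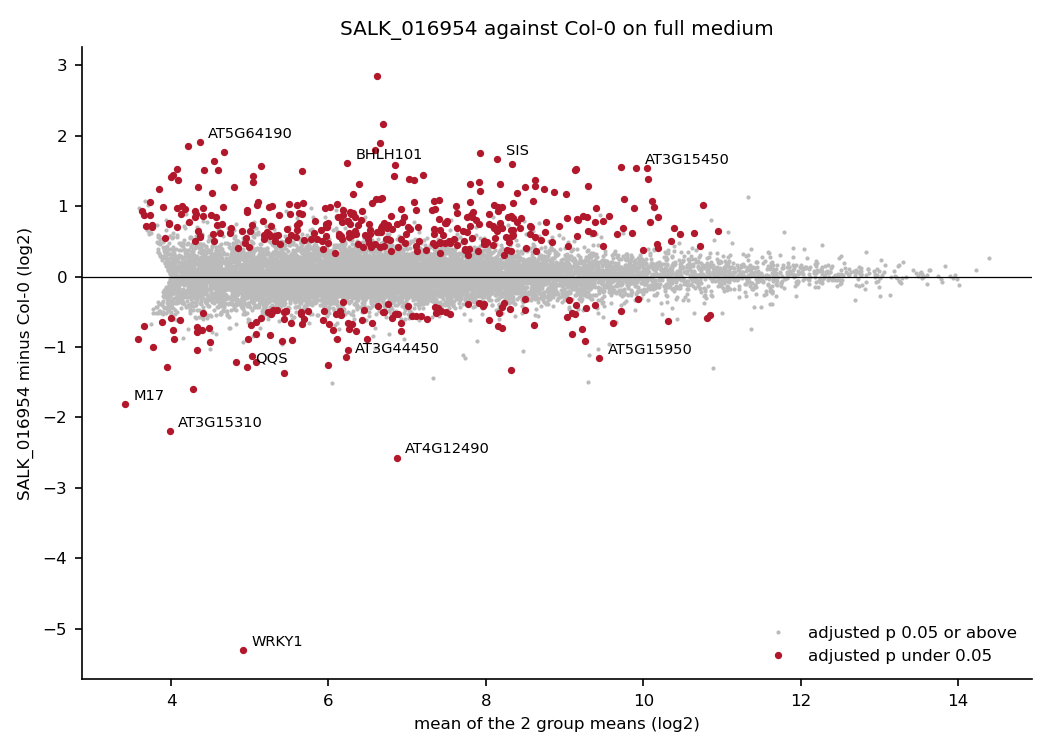
Difference between SALK_016954 and Col-0 (log2, SALK_016954 minus Col-0) against the mean of both groups (log2) for each of the 12484 measured probe sets. Red points, adjusted p under 0.05, number 335 above the line and 121 below it, and WRKY1 stands alone at -5.31.

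The filter at 4 brought in probe sets close to it. The 154 whose higher group mean was between 4 and 4.1 had differences between -0.88 and 0.97, with a median of -0.03. The 170 between 3.9 and 4, just left out, had differences between -0.78 and 1.05, with a median of -0.02. Of the 456 called, 405 had means above 4 in both groups and 51 in only 1 group. Gene names were available for 6633 of the measured probe sets with 1 gene each, among them 183 of the higher and 63 of the lower calls. A further 148 of the higher and 55 of the lower calls are not listed in the annotation. Among them are the probe sets with the largest rises of all, one with 7.03, 8.4 and 8.7 in SALK_016954, against 4.5, 5.63 and 5.46 in Col-0 (2.85 ± 0.32), and one with 7.63, 7.78 and 7.93 in SALK_016954, against 5.44, 5.45 and 5.94 in Col-0 (2.17 ± 0.28). The unlisted ones that fell furthest gave 4.84, 5.47 and 3.96 in SALK_016954, against 5.96, 6.5 and 5.93 in Col-0 (-1.38 ± 0.27), and 7.29, 7.54 and 8.12 in SALK_016954, against 9.6, 8.49 and 8.85 in Col-0 (-1.33 ± 0.37).

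The named transcripts with the largest rises in SALK_016954 included a glutaredoxin gene, a gene induced by low oxygen and a gene induced by salt. AT5G64190 gave 5.28, 5.2 and 5.47 in SALK_016954, against 3.59, 3.29 and 3.34 in Col-0, a difference of 1.91 ± 0.22 (limma adjusted p = 9.2e-07). AT3G62950, which encodes the CC-type glutaredoxin GRXC11, a small redox protein of a plant-specific class, gave 4.6, 5.16 and 5.65 in SALK_016954, against 3.44, 2.97 and 3.44 in Col-0 (1.86 ± 0.28, limma adjusted p = 5.2e-05). For both, the lowest SALK_016954 array lay at least 1 above the highest Col-0 array. AT1G33055, a small gene induced by low oxygen, gave 5.29, 5.53 and 5.85 in SALK_016954, against 3.79, 3.72 and 3.86 in Col-0 (1.76 ± 0.20, limma adjusted p = 9.2e-07). SIS, a serine-rich protein gene induced by salt, gave 8.73, 8.96 and 9.26 in SALK_016954, against 7.14, 7.45 and 7.34 in Col-0 (1.67 ± 0.22, limma adjusted p = 4.7e-06). The groups stood clear of each other for these genes as well.

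BHLH101, a basic helix-loop-helix factor of the iron deficiency response, gave 7.07, 6.84 and 7.22 in SALK_016954, against 4.9, 5.81 and 5.58 in Col-0 (1.61 ± 0.21, limma adjusted p = 3.9e-06). The SALK_016954 arrays were close together and the Col-0 arrays spread over almost 1 unit. AT2G29300, of the tropinone reductase-like family, gave 7.98, 7.61 and 7.29 in SALK_016954, against 6.12, 5.58 and 6.45 in Col-0 (1.58 ± 0.20). AT1G02660, a gene for a plastid lipase, gave 4.75, 4.47 and 5.3 in SALK_016954, against 3.46, 3.55 and 2.93 in Col-0 (1.53 ± 0.25). Neither gene showed overlap between the groups. AT5G12050 rose by 1.53 ± 0.22, AT2G28400 by 1.52 ± 0.27, AT4G28703, a cupin family gene, by 1.51 ± 0.26, AT3G15630 by 1.49 ± 0.28 and AT3G06070 by 1.45 ± 0.24. Their limma adjusted p lay between 2.3e-05 for AT5G12050 and 0.00093 for AT3G15630.

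**Figure D2:**
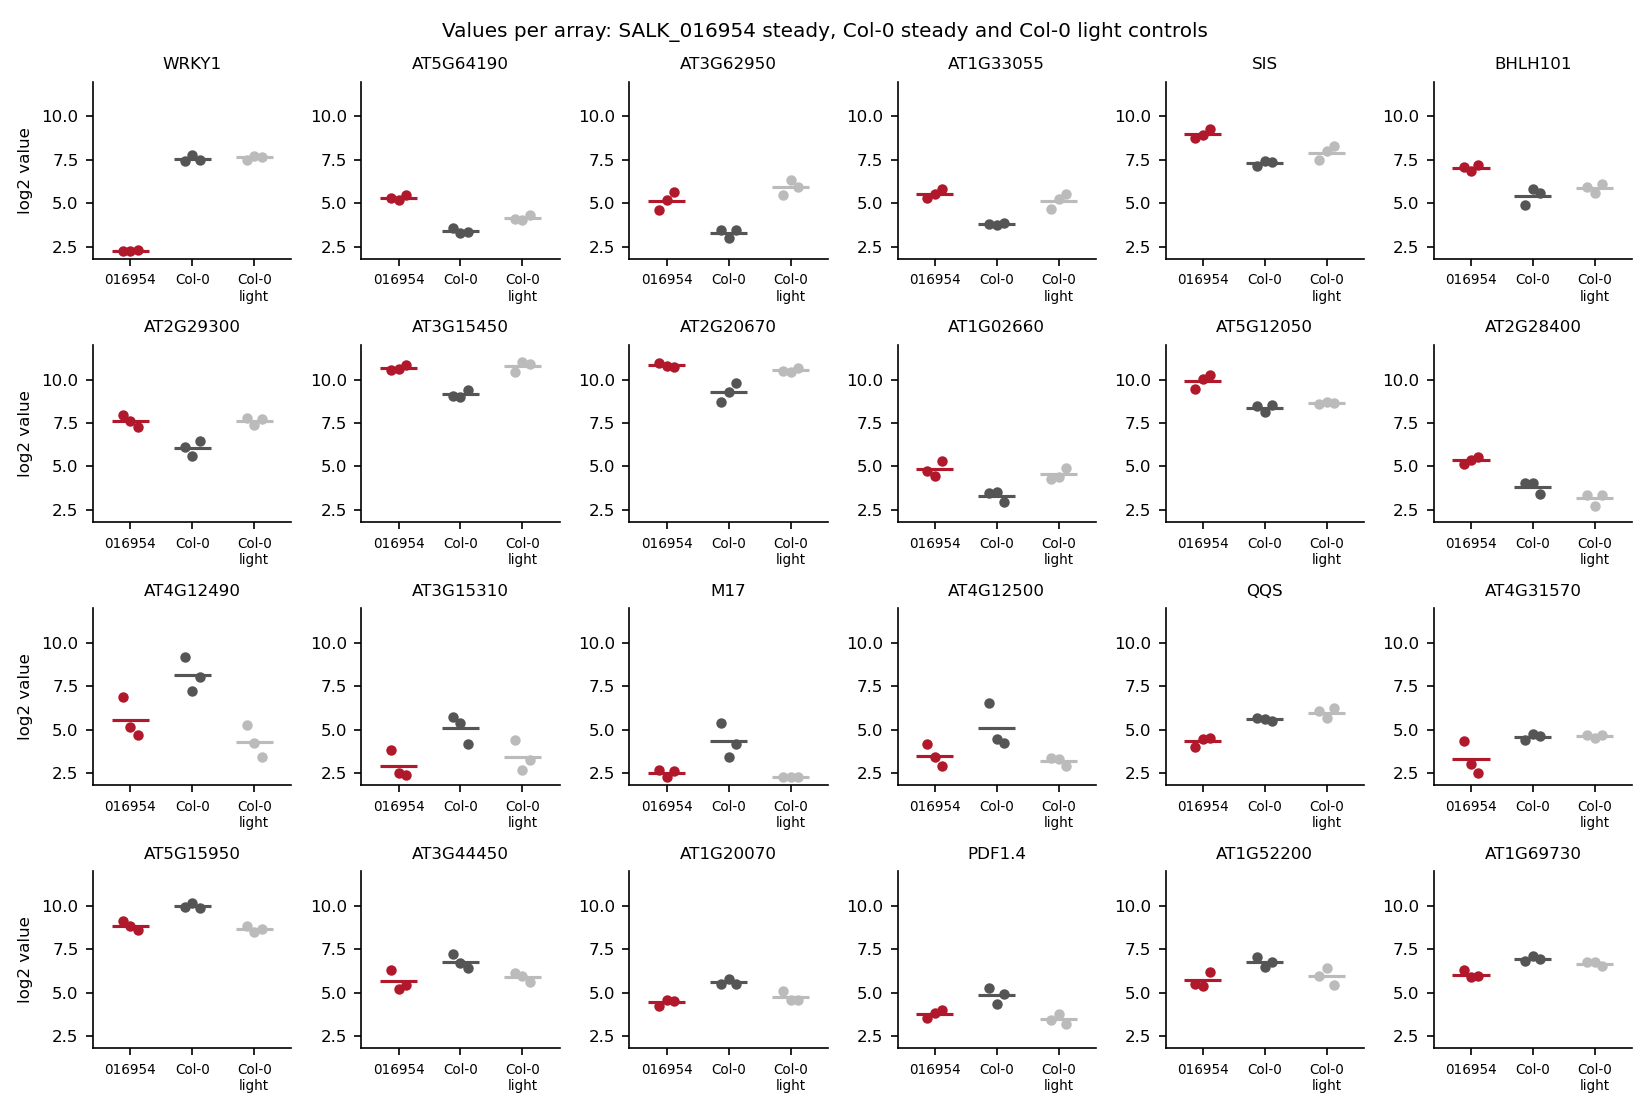
Log2 value of WRKY1, the 11 named genes with the largest rises and the 12 with the largest falls on each array of SALK_016954 steady (red), Col-0 steady (dark grey) and Col-0 light controls (light grey), with the group mean as a bar. The red and dark grey points do not overlap in any panel. Among the falls, the light grey mean lies below both for M17, AT4G12490, AT4G12500, AT5G15950 and PDF1.4 (2.25, 4.31, 3.2, 8.68 and 3.46). It lies above both for QQS and AT4G31570 (5.98 and 4.63) and between them for the other falls.

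After WRKY1, the named genes that fell furthest were AT4G12490, AT3G15310, M17 and AT4G12500. AT4G12490, a hybrid proline-rich member of the lipid transfer protein family, gave 6.89, 5.17 and 4.68 in SALK_016954, against 9.2, 7.22 and 8.04 in Col-0 (-2.57 ± 0.58, limma adjusted p = 0.0071). Its neighbour in the genome and the family, AT4G12500, gave 4.16, 3.39 and 2.88 in SALK_016954, against 6.52, 4.46 and 4.24 in Col-0 (-1.59 ± 0.43, limma adjusted p = 0.03). Both genes varied more between arrays than most others named here, and in each group replicate 1 was the highest. The call on AT4G12490 ended without SALK_016954 replicate 2 or 3 (-2.36 and -2.12, limma adjusted p = 0.054 and 0.11) or Col-0 replicate 1 (-2.05, 0.078). Those 3 arrays also carried the call on AT4G12500, which was at -1.55, -1.30 and -0.87 without them (adjusted p = 0.11, 0.23 and 0.29), and leaving low values unfiltered gave an adjusted p of 0.061.

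AT3G15310 gave 3.82, 2.48 and 2.36 in SALK_016954, against 5.7, 5.36 and 4.19 in Col-0 (-2.20 ± 0.33, limma adjusted p = 3.6e-05). M17, a late embryogenesis abundant gene typical of seeds, gave 2.68, 2.25 and 2.6 in SALK_016954, against 5.39, 3.41 and 4.17 in Col-0 (-1.81 ± 0.28, limma adjusted p = 5.2e-05). The M17 level in SALK_016954 was near the lowest value of the table, and the Col-0 arrays differed among themselves by almost 2 units. QQS, a gene found in Arabidopsis alone and linked to leaf starch content, gave 3.98, 4.48 and 4.49 in SALK_016954, against 5.68, 5.63 and 5.5 in Col-0 (-1.29 ± 0.24, limma adjusted p = 0.00083). For QQS the 3 Col-0 arrays lay within 0.2 of each other and above every SALK_016954 array.

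AT5G15950, which encodes the S-adenosylmethionine decarboxylase SAMDC2 of polyamine synthesis, gave 9.12, 8.86 and 8.61 in SALK_016954, against 9.96, 10.2 and 9.9 in Col-0 (-1.15 ± 0.22, limma adjusted p = 0.00094). AT3G44450, which encodes BIC2, a repressor of blue light signalling that acts on cryptochromes, gave 6.31, 5.2 and 5.46 in SALK_016954, against 7.22, 6.71 and 6.45 in Col-0 (-1.14 ± 0.23, limma adjusted p = 0.0024). The highest SALK_016954 array of AT3G44450 was its replicate 1, which came within 0.2 of the lowest Col-0 array. AT1G20070 fell by 1.13 ± 0.20, FCLY, a farnesylcysteine lyase gene, by 0.89 ± 0.14 and AT3G43670, a copper amine oxidase gene, by 0.88 ± 0.20, and the call on AT3G43670 ended without Col-0 replicate 2 (-0.71, limma adjusted p = 0.079).

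AT4G31570 gave 4.37, 3.03 and 2.52 in SALK_016954, against 4.42, 4.73 and 4.62 in Col-0 (-1.28 ± 0.28, limma adjusted p = 0.0049). Its SALK_016954 replicate 1 stood at almost the Col-0 level, and without replicate 3 the difference was -0.89 (limma adjusted p = 0.13). PDF1.4, a plant defensin gene, averaged 3.8 in SALK_016954 and 4.85 in Col-0 (-1.05 ± 0.28, limma adjusted p = 0.027). AT1G52200, of the PLAC8 family, averaged 5.72 in SALK_016954 and 6.77 in Col-0 (-1.05 ± 0.29, limma adjusted p = 0.034), and CYP71B23, a cytochrome P450 gene, 3.6 and 4.48 (-0.88 ± 0.24, limma adjusted p = 0.036). These last 3 calls were fragile. The call on PDF1.4 ended without each array other than Col-0 replicate 2 (-1.16 to -0.84, adjusted p of 0.053 to 0.15), that on AT1G52200 without SALK_016954 replicate 1 or 2 or Col-0 replicate 1 or 3 (-0.95, -0.89, -0.91 and -1.04, adjusted p = 0.085, 0.19, 0.14 and 0.077), and that on CYP71B23 without SALK_016954 replicate 2 or Col-0 replicate 1 or 3 (-0.61, -0.80 and -0.81, adjusted p = 0.32, 0.12 and 0.11). AT1G69730, a wall-associated kinase-like gene, fell by 0.89 ± 0.21 (limma adjusted p = 0.012), and its call ended without SALK_016954 replicate 2 or 3 or Col-0 replicate 2 (-0.83, -0.84 and -0.82, adjusted p = 0.077, 0.083 and 0.072).

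Genes of the low energy response, which are switched on when sugar is short and many of which depend on the kinase SnRK1, were the list with the most calls. Of 25 listed genes 9 were measured, 4 rose and 0 fell, with a list median of 0.35 against 0.006 over all measured probe sets. Of all tested probe sets, 2.38% were called higher and 0.896% lower, and these shares apply to the later lists too. The lists differ in how many genes were measured and were chosen with earlier results of these data known. Their ranking and counts are therefore no separate support. In this and the later counts by gene, a gene is measured if the annotation gives it a probe set of its own that passed the filter. The rest may be below the filter or lack such a probe set. Calls not listed in the annotation, 148 higher and 55 lower, are in no gene list. AT3G15450 gave 10.56, 10.63 and 10.87 in SALK_016954, against 9.04, 8.98 and 9.42 in Col-0 (1.54 ± 0.24, limma adjusted p = 7.2e-05). AT4G27450, of the same aluminium-induced protein type, gave 9.78, 9.81 and 10.08 in SALK_016954, against 8.29, 8.31 and 8.54 in Col-0 (1.51 ± 0.23, limma adjusted p = 4.6e-05). For both genes every SALK_016954 array was more than 1 unit above every Col-0 array. AT2G20670, of a family with a DUF506 domain, gave 10.94, 10.8 and 10.71 in SALK_016954, against 8.71, 9.3 and 9.82 in Col-0 (1.54 ± 0.22), and AKINBETA1, a regulatory subunit of the SnRK1 complex, gave 7.97, 8 and 8.26 in SALK_016954, against 7.02, 7.43 and 7.08 in Col-0 (0.90 ± 0.17, limma adjusted p = 0.00082). The other measured genes of the list lay between -0.1 and 0.35. Each of the 4 called genes also stood nearer to SALK_016954 than to these Col-0 arrays on the Col-0 arrays of the light controls, whose values are given further on.

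Of 38 genes of nitrate and nitrogen assimilation 6 were measured, and 2 of them rose. AT1G25550 and AT1G68670 encode HHO3 and HHO2, repressors of the MYB type that are themselves induced by nitrate. AT1G25550 gave 8.58, 8.53 and 8.72 in SALK_016954, against 7.4, 7.43 and 7.95 in Col-0 (1.01 ± 0.15, limma adjusted p = 2.8e-05). AT1G68670 gave 8.69, 8.73 and 8.68 in SALK_016954, against 7.77, 7.7 and 8.1 in Col-0 (0.84 ± 0.15, limma adjusted p = 0.00058). In both, Col-0 replicate 3 was the highest of its group and still below all SALK_016954 arrays, and the Col-0 arrays of the light controls, at 8.53 for each gene, lay nearer to SALK_016954. Their relative AT4G37180 (HHO5) differed by 0.29 ± 0.20 and AT1G64190, a phosphogluconate dehydrogenase gene of the pathway that supplies reducing power, by -0.24 ± 0.15 (limma adjusted p = 0.53 and 0.46). The list median was 0.14.

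The CC-type glutaredoxins, several of which respond to nitrogen supply, had differences in both directions. Of 21 listed genes 9 were measured, 2 rose and 0 fell, and the list ran from -0.75 to 1.86 with a median of 0.39. Beside AT3G62950, AT3G62930 (GRXS6) gave 5.46, 5.7 and 5.66 in SALK_016954, against 4.72, 4.6 and 4.44 in Col-0 (1.02 ± 0.18, limma adjusted p = 0.00055), with no overlap. AT5G18600 (GRXS2) was at 0.38 ± 0.11 (limma adjusted p = 0.056) and passed the threshold without SALK_016954 replicate 1 (0.43, 0.042). AT4G15680 (GRXS4) was at -0.75 ± 0.25 (limma adjusted p = 0.092) and passed it without SALK_016954 replicate 3 (-1.04, 0.028) or Col-0 replicate 3 (-0.95, 0.049). Members of this family are similar in sequence, and how far their probes tell them apart was not tested.

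Of 16 genes of auxin response and synthesis 5 were measured, all with a positive difference, and 2 of them rose. WES1 (GH3.5), which joins amino acids to auxin, gave 7.2, 7.73 and 7.93 in SALK_016954, against 6.49, 6.96 and 6.22 in Col-0 (1.06 ± 0.22, limma adjusted p = 0.0031). IAA29, a repressor of auxin signalling, gave 3.58, 4.71 and 4.49 in SALK_016954, against 3.17, 3.19 and 3.26 in Col-0 (1.06 ± 0.26, limma adjusted p = 0.015). SALK_016954 replicate 1 was the lowest of its group for both genes. The call on WES1 ended without SALK_016954 replicate 3 (0.91, adjusted p = 0.053), and that on IAA29 without SALK_016954 replicate 2 or 3 (0.83 and 0.94, adjusted p = 0.15 and 0.12) or Col-0 replicate 1 or 2 (1.04 and 1.05, adjusted p = 0.054 and 0.055). GH3.17 and GH3.3, of the same enzyme family as WES1, were at 0.43 ± 0.18 and 0.33 ± 0.20 (limma adjusted p = 0.23 and 0.46), and the list median was 0.43.

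Some genes outside the lists also rose, and the 5 named next were chosen after their values were seen. HAT2, a homeodomain-leucine zipper factor induced by auxin, gave 7.45, 7.98 and 8.08 in SALK_016954, against 6.67, 6.91 and 7.06 in Col-0 (0.95 ± 0.19, limma adjusted p = 0.0014). BRH1, a RING finger gene responsive to brassinosteroid, rose by 0.78 ± 0.15 (adjusted p = 0.0011 in limma), and TET8, a tetraspanin gene, by 0.84 ± 0.14 (0.00032). EXO, which promotes growth under brassinosteroid, rose by 1.21 ± 0.31 (limma adjusted p = 0.021), and its call ended without SALK_016954 replicate 3 (1.09, 0.15) or Col-0 replicate 2 or 3 (adjusted p = 0.064 and 0.086). CCL, whose unstable transcript follows the day cycle, rose by 0.86 ± 0.20 (limma adjusted p = 0.0084), and its call ended without SALK_016954 replicate 3 (0.73, 0.11) or Col-0 replicate 2 (0.77, 0.066).

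BHLH101 was the only call among the measured genes of the iron deficiency response, 6 of 28 listed, of which 1 rose and 0 fell, with a median of 0.04. PYE, another basic helix-loop-helix regulator of iron homeostasis, gave 5.21, 5.27 and 5.32 in SALK_016954, against 5.08, 5.82 and 5.44 in Col-0 (-0.18 ± 0.21), and the groups overlapped. ILR3 and bHLH104, which act upstream of PYE and BHLH101, were at 0.09 ± 0.10 and 0.07 ± 0.11 (limma adjusted p = 0.78 and 0.86). None of the 8 listed iron storage genes was measured, which does not separate a missing gene name from a low level. Of 14 genes of the hypoxia core 1 was measured, AT1G33055, described above.

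Of 25 antenna, photosystem and Calvin cycle genes 6 were measured and 0 were called by limma, with 0 at an unadjusted p under 0.05, a median of -0.04 and a range of -0.07 to 0.25. LHCB4.1, an antenna protein gene, gave 12.91, 12.7 and 12.78 in SALK_016954, against 12.74, 13.03 and 12.84 in Col-0 (-0.07 ± 0.16), and the Calvin cycle genes SBPASE and PRK were at -0.07 ± 0.12 and -0.05 ± 0.11. LHCB4.3 was at 0.25 ± 0.17. Of 23 light signalling genes 3 were measured and AT3G44450 fell, while HYH, a bZIP factor, was at -0.23 ± 0.19 and AT3G52740 (BIC1), the relative of BIC2, at -0.09 ± 0.25 (limma adjusted p = 0.63 and 0.94). The median of that list was -0.23. Of 12 chlorophyll synthesis genes 2 were measured, PORB at 0.58 ± 0.18 (limma adjusted p = 0.066) and CHLM at -0.02 ± 0.08, with a median of 0.28, and PORB passed the threshold without Col-0 replicate 3 (0.77, limma adjusted p = 0.02). Of 21 clock genes 1 was measured, GI, at 0.14 ± 0.16.

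Of 26 glucosinolate genes 6 were measured and 0 were called by limma, 3 having an unadjusted p under 0.05, where 15.5% of all tested probe sets did, with a median of -0.27 and a range of -0.55 to 0.15. The lowest was the transporter gene GTR1, with 7.64, 6.86 and 6.88 in SALK_016954, against 7.86, 7.51 and 7.67 in Col-0 (-0.55 ± 0.25, limma adjusted p = 0.28), and the glucosyltransferase genes AT2G31790 (UGT74C1) and UGT74B1 were at -0.35 ± 0.15 and -0.30 ± 0.14. AOP1, a dioxygenase-type gene, was at -0.24 ± 0.15. Of 19 cold and dehydration genes 4 were measured and 0 were called, with 0 at an unadjusted p under 0.05, COR47 at 0.29 ± 0.18, LTI30 at -0.22 ± 0.28, COR15A at -0.31 ± 0.43 and COR15B at -0.14 ± 0.36, with a median of -0.18. None of 19 listed genes of salicylic acid and jasmonate defence was measured, and here too a missing gene name and a low level cannot be told apart.

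Falls were called in the lists of lipid transfer protein, polyamine and starch genes. Of 12 hybrid proline-rich lipid transfer protein genes 4 were measured, AT4G12490 and AT4G12500 fell, and AT2G45180 and AT1G62510 were at 0.27 ± 0.15 and 0.16 ± 0.16 (limma adjusted p = 0.38 and 0.71), which put the median of the list at -0.72. Of 11 polyamine genes 3 were measured, AT5G15950 fell, and its relatives SAMDC (SAMDC1) and AT3G25570 (SAMDC3) were at -0.14 ± 0.08 and -0.24 ± 0.15, with a median of -0.24. SAMDC stood at 12.47, 12.44 and 12.25 in SALK_016954, against 12.53, 12.57 and 12.48 in Col-0, so its groups lay close to each other without overlap. Of 23 starch genes 3 were measured, QQS fell, and DPE1, a glucan transferase gene, and APL3, a subunit gene of ADP-glucose pyrophosphorylase, were at 0.19 ± 0.16 and -0.06 ± 0.21, with a median of -0.06.

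**Figure D3:**
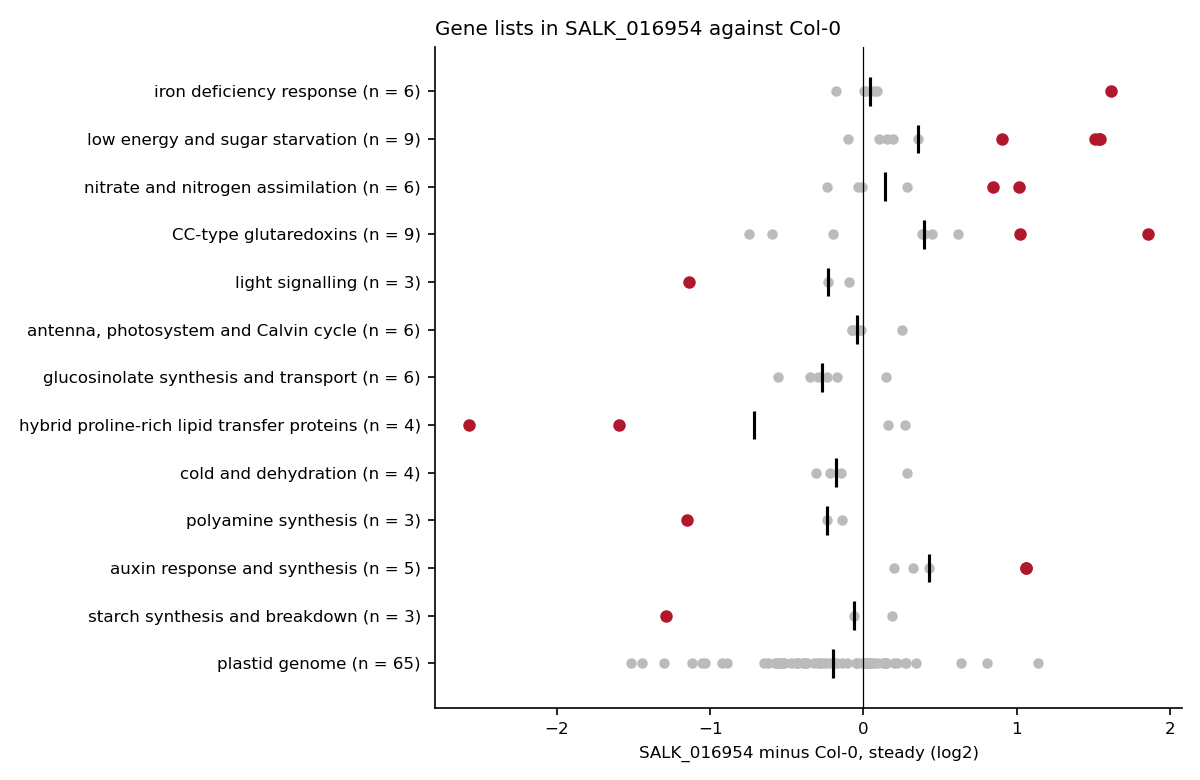
Difference between SALK_016954 and Col-0 (log2, SALK_016954 minus Col-0) of each measured gene in the 13 gene groups with at least 3 measured members. Red points passed an adjusted p of 0.05, grey points did not, and the black bar is the median, which runs from -0.72 for the lipid transfer protein genes to 0.43 for the auxin genes.

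Of 5 further genes that the annotation names WRKY and that passed the filter somewhere in the series, 2 were measured here. WRKY genes without such a name in the annotation are not counted. WRKY20 gave 6.68, 6.5 and 6.45 in SALK_016954, against 6.49, 6.68 and 6.4 in Col-0 (0.02 ± 0.13), and WRKY47 was at -0.19 ± 0.25 (limma adjusted p = 0.99 and 0.8), with a median of -0.09.

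Genes of the plastid genome gave 0 calls in limma among 65 measured, 9 having an unadjusted p under 0.05, a share near the 15.5% of all tested probe sets, with differences between -1.52 and 1.13 and a median of -0.2, and several varied widely between arrays. The photosystem gene psaA gave 6.38, 5.27 and 4.19 in SALK_016954, against 6.6, 6.74 and 7.05 in Col-0 (-1.52 ± 0.54, limma adjusted p = 0.12), and without SALK_016954 replicate 1 it was at -2.07 (adjusted p = 0.028). The antenna gene psbC gave 10.69, 10.15 and 9.87 in SALK_016954, against 11.38, 11.54 and 11.7 in Col-0 (-1.30 ± 0.40, limma adjusted p = 0.065), and without the same array it was at -1.53 (0.04). For psaA and psbC no array of SALK_016954 reached the Col-0 arrays. The reaction centre gene psbD was at -1.05 ± 0.44 and psaJ at 1.13 ± 0.35 (limma adjusted p = 0.22 and 0.067), and psaJ passed the threshold without SALK_016954 replicate 1 (1.58, 0.0072) or Col-0 replicate 3 (1.42, 0.036). The mitochondrial genes cox1 and nad4, 2 of 4 named in the annotation that passed the filter somewhere in the series, were at -0.54 ± 0.20 and 0.27 ± 0.23, with a median of -0.13.

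Calls were also counted by chromosome, since WRKY1 and the insertion lie on chromosome 2. Of 941 measured genes there, 45 were called (4.78%), against 3.08% of 1689 genes on chromosome 1, 3.89% of 1364 on chromosome 3, 3.88% of 953 on chromosome 4 and 3.58% of 1592 on chromosome 5. Among the 20 genes on each side of WRKY1 10 were measured, with differences from -0.58 to 0.53. The only call was AT2G04690, which gave 7.66, 7.92 and 8.01 in SALK_016954, against 7.17, 7.31 and 7.51 in Col-0 (0.53 ± 0.14, limma adjusted p = 0.023). That call ended without SALK_016954 replicate 2 or 3 (0.51 and 0.46, adjusted p = 0.10 and 0.17) or Col-0 replicate 1 or 2 (0.45 and 0.53, adjusted p = 0.12 and 0.076). SCL21, a GRAS family gene next to WRKY1, gave 4.13, 3.64 and 4.33 in SALK_016954, against 4.64, 4.6 and 4.6 in Col-0 (-0.58 ± 0.18, limma adjusted p = 0.071), with no overlap. Both neighbours were singled out after their values were seen.

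The labelled tissue, shoot, was checked against markers. The 3 measured leaf markers of 8, RCA, PRK and SBPASE, gave a summed level of 14.65 to 14.77 in SALK_016954 and of 14.72 to 14.74 in Col-0, and 0 of them were called. Of 10 root markers PYK10 was measured, at 11.46, 11.68 and 11.97 in SALK_016954, against 11.68, 11.56 and 11.65 in Col-0 (0.07 ± 0.13), and the root hair gene EXPA7 was at the lowest value of 2.23 in both groups. Of 15 seed markers M17 was the only one measured, M10 was at 2.24 in both groups, and their summed level ran from 3.24 to 3.48 in SALK_016954 and from 3.94 to 5.54 in Col-0. None of 7 flower markers had a probe set with a gene name of its own, so none could be checked. The part of seed-type transcripts in the other differences was not tested.

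SALK_016954 was next compared directly with each of the other insertion lines, which needs no Col-0 array. Against SALK_136009, 1 measured probe set was called in limma, that of WRKY1, where the background share is 0.007% of all tested, and 511 had an unadjusted p under 0.05. A fit to these 6 arrays alone, and one to the 4 steady groups, called 0, with 864 and 548 at an unadjusted p under 0.05, limma with trend and robust settings called 2, and leaving out SALK_136009 replicate 1 gave 16. The middle 90% of the differences lay between -0.26 and 0.26. For AT5G64190 the difference of SALK_016954 from SALK_136009 was -0.14 (95% interval -0.59 to 0.31), for AT1G33055 -0.13 (-0.54 to 0.28), for AT2G20670 -0.15 (-0.60 to 0.30) and for AT5G12050 0.24 (-0.21 to 0.69). Of the 85 named genes other than WRKY1, 13 had an interval that left out 0 before any adjustment. The 511 above are out of 12484 measured probe sets. Many named genes were chosen for extreme values on the same SALK_016954 arrays, so their count cannot be compared with that share. SALK_016954 was lower than SALK_136009 for AT3G62950 at -0.82 (-1.39 to -0.25), AT4G27450 at -0.54 (-1.01 to -0.07), AKINBETA1 at -0.53 (-0.88 to -0.18), QQS at -0.76 (-1.25 to -0.27), IAA29 at -0.77 (-1.30 to -0.24), PORB at -0.51 (-0.88 to -0.14), CCL at -0.47 (-0.88 to -0.06), TET8 at -0.35 (-0.63 to -0.07) and SCL21 at -0.56 (-0.93 to -0.19). It was higher for BHLH101 at 0.48 (0.05 to 0.91), AT3G44450 at 0.74 (0.27 to 1.21), HYH at 0.49 (0.10 to 0.88) and APL3 at 0.44 (0.01 to 0.87). Of these differences from SALK_136009 none passed the adjusted threshold. For AT4G12490 the interval was wide, -0.48 to 1.88 around 0.70.

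Against SALK_070989, 479 measured probe sets were called, 335 higher and 144 lower in SALK_016954, 71 of them by at least 1. The background share is 3.46% of all tested probe sets, 2.37% higher and 1.09% lower. A further quantile normalization turned the balance to 195 higher and 265 lower. SALK_070989 replicate 3, whose array median was 4.37 where the other 5 arrays of this contrast had 4.54 to 4.58, decided much of it: without that array 195 were called, 98 higher and 97 lower. Without SALK_016954 replicate 2 or 3 the count was 97 or 263, and without SALK_070989 replicate 2 it was 702. A fit to these 6 arrays alone called 0, with 2021 at an unadjusted p under 0.05.

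Several genes that had risen in SALK_016954 stood higher still in SALK_070989, and several that had fallen stood lower still. SIS was 1.06 ± 0.22 lower in SALK_016954 than in SALK_070989 (limma adjusted p = 0.0058), with means of 8.98 and 10.04, and CCL was 1.04 ± 0.20 lower (0.0033). AT3G44450 was 1.51 ± 0.23 higher in SALK_016954 (limma adjusted p = 0.00026), with means of 5.66 and 4.14, and AT1G20070 was 1.13 ± 0.20 higher (0.0017). Among genes of the lists, HYH was 0.91 ± 0.19 higher in SALK_016954 (limma adjusted p = 0.0072), PORB 0.86 ± 0.18 lower (0.0066) and AT4G15680 1.33 ± 0.25 lower (0.0025). The calls on these 7 genes held with each of the 6 arrays left out in turn and after a further quantile normalization.

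Other calls against SALK_070989 rested on single arrays. AT4G28703 was at -1.16 ± 0.26 (limma adjusted p = 0.0099), and at -0.85 and -1.15 (0.068 and 0.054) without SALK_016954 replicate 1 or 2. AT4G31570 was at -1.27 ± 0.28 (limma adjusted p = 0.0091), with means of 3.31 in SALK_016954 and 4.58 in SALK_070989, and at -1.13 and -0.88 (0.075 and 0.098) without SALK_016954 replicate 2 or 3. AT5G15950 was at 0.88 ± 0.22 (limma adjusted p = 0.018), and at 0.75, 0.89 and 0.64 (0.072, 0.076 and 0.16) without SALK_016954 replicate 1 or 2 or SALK_070989 replicate 3. LHCB4.3 was at 0.82 ± 0.17 (0.0073 in limma), and at 0.75 (0.058) without SALK_016954 replicate 2. UGT74B1 was at 0.59 ± 0.14 (0.016 in limma), and at 0.59, 0.53 and 0.48 (0.071, 0.074 and 0.12) without SALK_016954 replicate 2 or 3 or SALK_070989 replicate 3. The calls on AT3G62950, AT1G02660, WES1, bHLH104, AT2G31790, psaA, psbC and SCL21 each ended without any one of at least 3 of the 6 arrays, with adjusted p of up to 0.16, 0.18, 0.094, 0.19, 0.23, 0.26, 0.16 and 0.28. A further quantile normalization also ended the calls on bHLH104 (0.32, adjusted p = 0.091) and AT2G31790 (0.48, 0.07).

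For other genes the difference from SALK_070989 was small with an interval around 0, such as AT5G64190 at -0.08 (95% interval -0.53 to 0.37), AT5G12050 at 0.04 (-0.41 to 0.49) and AT3G06070 at 0.03 (-0.46 to 0.52). No measured probe set was called in the same direction against both other lines.

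**Figure D4:**
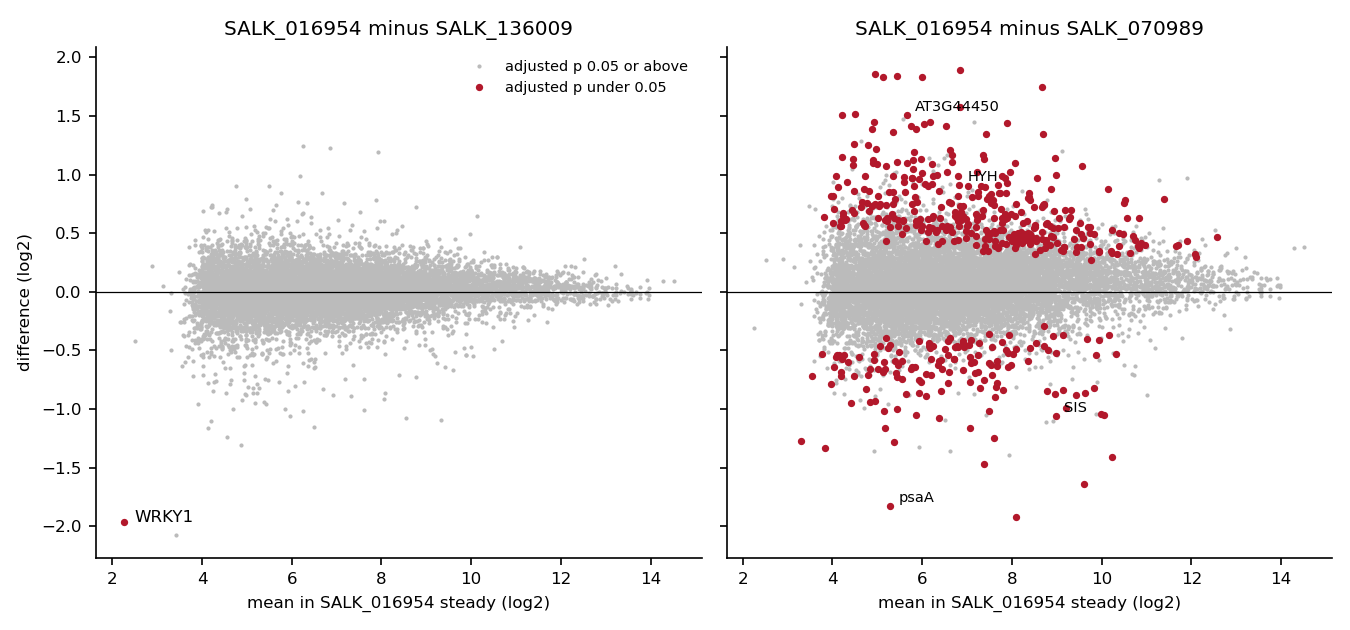
Difference of SALK_016954 from SALK_136009 (left) and from SALK_070989 (right), in log2, against its mean in SALK_016954 (log2), for the 12484 measured probe sets. Red points passed an adjusted p of 0.05: 1 in the left panel, WRKY1, and 479 in the right panel.

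The 3 lines share their 3 Col-0 arrays, so their own differences are given only side by side. Of the probe sets measured in SALK_016954 or Col-0, 456 were called in SALK_016954, 1171 in SALK_136009 (695 higher and 476 lower, background share 8.48%, 5.07% higher and 3.41% lower) and 1715 in SALK_070989 (760 higher and 955 lower, background share 12.5%, 5.61% higher and 6.88% lower). BHLH101 differed from Col-0 by 1.61 in SALK_016954, by 1.14 in SALK_136009 and by 1.45 in SALK_070989. For QQS the same differences were -1.29, -0.52 and -1.0.

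The Col-0 light controls of another experiment carry the same growth protocol text as the steady arrays, and their values are set beside those of the steady Col-0 arrays. The experiment, and whatever differed with it, cannot be told apart from the level. Of the 43 named genes called, 26 had a Col-0 light mean nearer to SALK_016954 than to Col-0 steady, as did 267 of the 456 called probe sets (58.6%) and 48.2% of all measured. The called ones were chosen for their differences from these same Col-0 steady arrays. Their shares therefore cannot be compared with that of all measured. The 26 include all 4 called genes of the low energy response. AT3G15450 was at 10.68 in SALK_016954 and 9.14 in Col-0 steady, where Col-0 light had 10.79. AT4G27450 was at 9.89 in SALK_016954 and 8.38 in Col-0 steady, where Col-0 light had 9.56, AT2G20670 was at 10.81 and 9.28, where Col-0 light had 10.54, and AKINBETA1 was at 8.08 and 7.18, where Col-0 light had 8.28. For each of these genes the Col-0 light level lay nearer to that of SALK_016954. The same was seen for both called nitrate genes, AT1G25550 at 8.61 in SALK_016954 and 7.6 in Col-0 steady, where Col-0 light had 8.53, and AT1G68670 at 8.7 and 7.86, where Col-0 light had 8.53. The glutaredoxin gene AT3G62950 was at 5.14 in SALK_016954 and 3.28 in Col-0 steady, where Col-0 light had 5.91, and AT3G62930 was at 5.61 and 4.58, where Col-0 light had 5.41. AT1G33055 was at 5.55 in SALK_016954 and 3.79 in Col-0 steady, where Col-0 light had 5.15, and AT2G29300 was at 7.63 and 6.05, where Col-0 light had 7.63. Among genes that fell, AT4G12490 was at 5.58 in SALK_016954 and 8.15 in Col-0 steady, where Col-0 light had 4.31, and M17 was at 2.51 and 4.32, where Col-0 light had 2.25. AT5G15950 was at 8.86 in SALK_016954 and 10.02 in Col-0 steady, where Col-0 light had 8.68.

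For other genes Col-0 light resembled Col-0 steady. AT5G12050 was at 9.91 in SALK_016954 and 8.38 in Col-0 steady, where Col-0 light had 8.67, and AT4G28703 was at 5.17 and 3.66, where Col-0 light had 3.64. QQS was at 4.32 in SALK_016954 and 5.6 in Col-0 steady, where Col-0 light had 5.98. WRKY1 was at 2.26 in SALK_016954 and 7.56 in Col-0 steady, where Col-0 light had 7.64. BHLH101 was at 7.05 in SALK_016954 and 5.43 in Col-0 steady, where Col-0 light had 5.87.

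The light controls also hold an insertion line of their own, SALK_070989, against those 3 Col-0 arrays, and no array is shared with the comparison of SALK_016954, although both take their variances from the same limma fit. Of the 335 probe sets higher in SALK_016954, 119 (35.5%) were also called higher in SALK_070989 light, where 3.81% of all tested were, and 1 was called lower. Of the 120 lower ones other than WRKY1, 27 (22.5%) were also called lower, where 1.8% of all tested were, and 3 were called higher. Among the 74 that rose by at least 1, 41 (55.4%) were called higher. The median difference in the light controls was 0.35 for the higher and -0.18 for the lower set, against -0.01 for all tested probe sets. Of the higher set 292 and of the lower set 94 kept their sign, where 6402 of all 14288 tested were positive and 7440 negative. With each comparison taken from a fit to the 4 groups of its own experiment, an alternative chosen after seeing the data, 68 of 175 higher probe sets (38.9%, background 4.45%) and 14 of 39 lower ones (35.9%, background 2.57%) were called in the same direction.

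By gene, AT4G28703 rose by 2.09 in SALK_070989 light (limma adjusted p = 1.7e-06), AT1G02660 by 1.63 (3.7e-05), SIS by 1.44 (3.7e-05), WES1 by 1.32 (0.00015) and AT4G27450 by 1.13 (0.0013). AT1G33055 rose there by 1.09 (limma adjusted p = 0.00056). Among the other called low energy genes, AKINBETA1 rose by 0.76 (limma adjusted p = 0.0036). AT3G15450 and AT2G20670 were at 0.77 and 0.37 there (limma adjusted p = 0.052 and 0.42) and were not called. BHLH101 rose by 0.78 (limma adjusted p = 0.018), a call that ended without SALK_070989 light replicate 2 or 3 or Col-0 light replicate 2 (0.71, 0.65 and 0.62, adjusted p = 0.09, 0.12 and 0.14). AT1G20070, QQS, AT3G44450 and AT5G15950 were lower, at -1.26, -1.23, -1.20 and -1.14 (adjusted p = 8.8e-05, 0.00091, 0.00089 and 0.0007 in limma). Against this, AT2G29300 was at -0.13 (limma adjusted p = 0.85), AT1G25550 and AT1G68670 at 0.27 and 0.14 (0.37 and 0.74), AT3G62930 at -0.08 (0.91), AT3G43670 at 0.30 (0.47) and M17 at 0.47 (0.4). AT4G12490 and AT3G15310 were at -0.78 and -0.94, with limma adjusted p of 0.56 and 0.09.

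**Figure D5:**
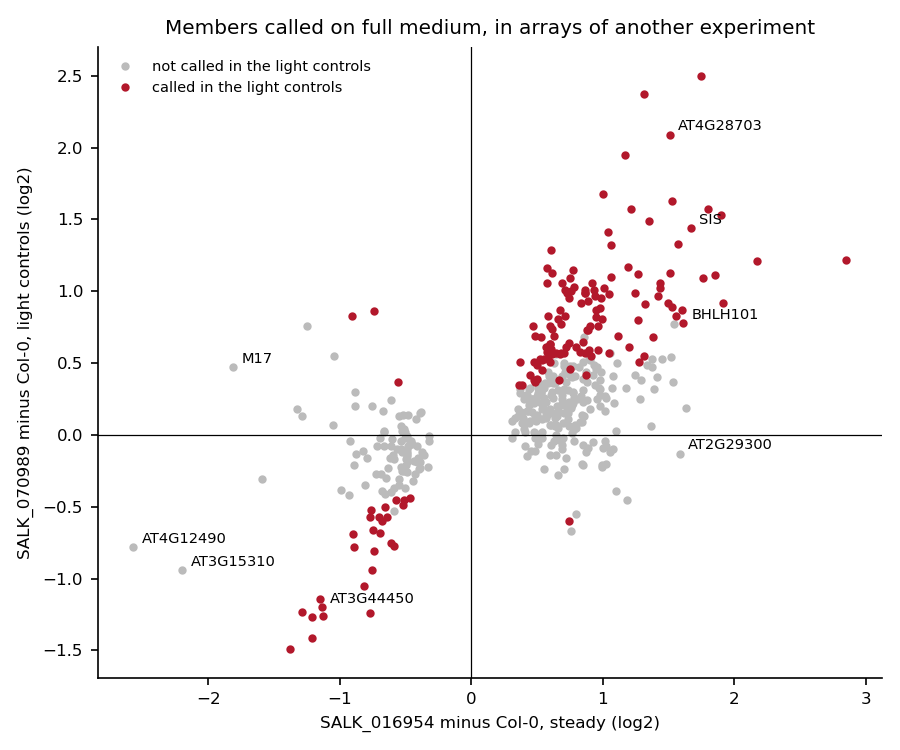
Difference of SALK_070989 from Col-0 in the light controls (log2) against the difference of SALK_016954 from Col-0 on full medium (log2), for the probe sets other than WRKY1 that were called on full medium. Red points were also called in the light controls, 119 of the 335 on the right in the upward direction and 27 of the 120 on the left in the downward direction.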

How the data were processed

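Shoot RNA was labelled by in vitro transcription for 3′ expression arrays, as the labels' protocols state. One deposited table holds 22810 probe sets as log2 values that the authors made with GCRMA, which corrects background, normalizes and summarises, per the submitters' processing notes. Its version is not given in the sources used, and the log2 scale was inferred from the range of 2.23 to 14.63. Within 0.01 of the lowest lay 26.4% of all values, so a difference against that level is a lower bound, and normalization would hide a change of most transcripts one way. The number of arrays limits the precision.

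After leaving out 64 control probe sets, limma 3.58.1 in R 4.3.3 was fitted with 16 group means to all 46 arrays (residual degrees of freedom 30, prior 4.97), over the 14288 probe sets with a group mean above 4, with eBayes and Benjamini-Hochberg adjustment. A value after ± is the standard error of the log2 difference, and levels are group means of 3 arrays. Gene names came from the platform annotation, which gives 13513 probe sets 1 gene and 503 several, and 13508 matched a locus of the TAIR10.1 gene table. The annotation gives AT2G04880 the symbol ZAP1, replaced here by WRKY1 from the study's title. For a gene with several probe sets, the gene lists and chromosome counts used the one with the highest mean. A marker list's summed level is the log2 of its genes' summed linear values on an array.

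Named genes were the 15 largest rises and 15 largest falls with no overlap between arrays, WRKY1, and up to 4 genes of each list with the smallest adjusted p. A further part of the rule, genes called alike against both other lines, found 0. Members, lists and rules were chosen with earlier results of these data known. The fit was tested on simulated data in which 200 of 14288 probe sets were changed. It recovered 38.8% of those changed by 0.5, 94% by 1 and 100% by 2, and made 17 false calls. Alternatives were the filter, the normalization, the variance settings, a replicate block, the groups in the fit and leaving out each array. Tables used python 3.11.15 with pandas 2.3.3 and numpy 2.4.6, and plots matplotlib 3.10.9.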

Additional observations from a re-analysis of the deposited data

Results flagged for a closer look

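These results of SALK_016954 differed, by a direct limma test, between insertion lines set against the same Col-0 arrays. Against SALK_136009 this held for 1 measured probe set, WRKY1 at -1.96. Against SALK_070989 it held for 479. Among the genes named, those lower in SALK_016954 than in SALK_070989 were AT3G62950 (-1.02), SIS (-1.06), AT1G02660 (-0.94), AT4G28703 (-1.16), AT4G31570 (-1.27), AT4G15680 (-1.33), PORB (-0.86), WES1 (-0.90), CCL (-1.04), SCL21 (-0.64), psbC (-1.41) and psaA (-1.83). Those higher in SALK_016954 were AT3G44450 (1.51), AT1G20070 (1.13), HYH (0.91), AT5G15950 (0.88), LHCB4.3 (0.82), UGT74B1 (0.59), AT2G31790 (0.54) and bHLH104 (0.39). All of these differences from SALK_070989 belong to the contrast that called 195 without SALK_070989 replicate 3 and 0 in a fit to its own 6 arrays. Groups of 3 arrays are too small for the test of single outlying arrays, which was not run.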

How the results depend on the processing

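The fall of WRKY1 in SALK_016954 held under every alternative tried, between -5.36 and -5.21. Of the other 42 named genes called against Col-0, all kept their sign under every alternative that gave a value, the filter at 6 leaving 38 of them. All 42 kept their call with a further quantile normalization, with trend and robust settings and with the filter on either group compared, and 38 with no filter, which lost AT4G12500, PDF1.4, AT1G52200 and CYP71B23. A fit to the 4 steady groups kept 27, losing AT2G28400, AT4G28703, AT4G12490, M17, AT4G12500, AT4G31570, AT3G44450, PDF1.4, AT1G52200, CYP71B23, WES1, IAA29, EXO, HAT2 and AT2G04690, and a fit to the 6 arrays alone kept 5, AT5G64190, AT1G33055, SIS, AT3G15450 and AT4G27450. Leaving out 1 array kept between 32 and 40. The count of calls against Col-0, 456, was 361 with no filter, 215 in the fit to the 4 steady groups, 20 in the fit to 6 arrays and 180 to 680 with 1 array left out. Against SALK_136009, 1 became 2 with trend and robust settings, 0 in both smaller fits and 1 to 16 with 1 array left out. Against SALK_070989, 479 became 121 and 0 in the fits to 4 and 2 groups and 97 to 702 with 1 array left out. In the light controls, 754 became 951 and 588 in the fits to 4 and 2 groups. With 1 array left out that count was 404 to 634, 491 without SALK_070989 light replicate 1 and 404 without Col-0 light replicate 1. AT5G18600, at an adjusted p of 0.056, passed with the filter at 6, the filter on either group and trend settings (0.046, 0.048 and 0.042). Smaller fits have fewer arrays to estimate the spread, but the fit to 4 groups lowered some counts and raised that of the light controls. The cause of these shifts was not tested. Replicate numbers did not pair the arrays of SALK_016954 and Col-0 (correlations of same-numbered deviations of 0.15, -0.02 and -0.07), and a replicate block gave 448 calls, 395 of them among the 456, and brought PORB past the threshold (0.58, limma adjusted p = 0.035). Signal near the lowest value limits what can be said of genes such as WRKY1 and M17 in SALK_016954.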
